A study of Mus musculus with 6 samples.

Results

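A group of 10 genes, coding for subunits of RNA polymerase II and for factors that hold or release it during elongation, was followed through a knockdown of Son in mouse embryonic stem cells. The genes were chosen as a list by symbol: the polymerase subunit genes Polr2a, Polr2b, Polr2c, Polr2e, Polr2g and Polr2i, the elongation factor genes Supt5 and Supt6, and the negative elongation factor genes Nelfa and Nelfb. Of 12134 gene identifiers and 85015 unique introns in the total RNA tables, 9 of these 10 genes and 133 introns belong to the list. Polr2i has no intron listed there, and its data come from the long reads alone. In the long-read tables the 10 genes have 52 transcript models, of which 41 had at least 1 read.

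The cells were E14 embryonic stem cells of 129/Ola background, grown in medium with serum and leukemia inhibitory factor. Controls received a control siRNA and knockdown cells an siRNA against Son, both by lipofection, and RNA was taken 24 hours later. The controls therefore share the transfection, the cell line and the medium. There were 2 control and 2 knockdown samples of total RNA, depleted of ribosomal RNA, and 1 sample of each kind read as Nanopore cDNA made from polyadenylated RNA. The labels do not say whether samples of a group came from separate cultures, so p-values measure the spread between these samples, which may be technical.

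RNA polymerase II transcribes protein-coding genes. Its large subunits form the active centre, and smaller subunits help it assemble, bind DNA and leave the promoter. Shortly after initiation it is held near the promoter by DSIF, the dimer of SPT4 and the Supt5 product SPT5, together with NELF, the negative elongation factor. The kinase P-TEFb phosphorylates these factors, NELF leaves, and DSIF travels on with the polymerase together with the histone chaperone SPT6. Son codes for a protein of nuclear speckles that assists splicing.

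The total RNA libraries held 10556187 to 16012286 split reads at 5′ junctions, and the long-read libraries 3080426 (control) and 1874851 (knockdown) reads. Son itself stood at 281 and 312 CPM (counts of split reads scaled to the library total) under control siRNA and at 94.6 and 102 under Son siRNA. Of 12 stem cell markers 11 were listed, with summed levels of 4898 to 5193 CPM over the 4 libraries, and 1 of them (Tfcp2l1) was called higher. Fibroblast, endoderm, trophoblast and mesoderm markers were unlisted or summed to at most 10.2 CPM, and 3 neural markers summed to 71.5 to 87.1 CPM. In bulk RNA, fewer cells of a type and less RNA per cell cannot be told apart. Mean splicing efficiency, the fraction of reads at an intron's junctions that are split (spliced), was 0.903 and 0.893 in control replicates 1 and 2 and 0.893 and 0.875 in knockdown replicates 1 and 2, over all 68322 introns listed in every library. Over the 130 such introns of the 9 listed genes it was 0.945 and 0.936 in controls against 0.933 and 0.907 after knockdown. Knockdown replicate 2 was the lowest library in both sets. Where a library is left out below, its group keeps 1 library, the spread comes from the other group's 2 libraries alone, and the lone library is assumed to vary as they do.

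The introns that the results turn on are shown by the exon ends they join, because the intron letters of this genome build were not used here. Each line gives the last 30 bases of the upstream exon and the first 30 of the downstream exon, 5′ to 3′ on the gene's strand, taken from GENCODE M21 transcripts by transcript and intron number. Capitals mark the last 3 bases of the upstream exon and the first base of the downstream exon. The first 2 are the introns called in Supt5. The others are the introns with the smallest p in Nelfb, where every tested intron leaned the same way, and in Polr2a, whose introns are of similar length to those of Supt5 and moved little.
Supt5 intron 14: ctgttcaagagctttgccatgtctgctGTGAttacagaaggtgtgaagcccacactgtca
Supt5 intron 29: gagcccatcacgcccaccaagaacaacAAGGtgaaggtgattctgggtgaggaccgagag
Nelfb intron 12: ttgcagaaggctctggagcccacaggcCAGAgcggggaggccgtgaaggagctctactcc
Polr2a intron 11: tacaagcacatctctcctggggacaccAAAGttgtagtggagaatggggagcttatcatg
An exon end of AG preceded 57.6% of 63049 tested introns with a matched exon, 15 of 24 in Supt5, 5 of 7 in Nelfb and 13 of 23 in Polr2a. Intron 14 of Supt5 and intron 11 of Polr2a follow exons that end otherwise, as the capitals show.

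Coverage of the 10 genes was uneven. Their first protein-coding models hold 165 introns, of which 128 were listed. Each of the 37 unlisted introns overlaps an annotated exon of another transcript, while 3 of the 128 listed ones do. Unlisted were all 5 introns of Polr2i and 5 of 6 in Polr2e, against 2 of 36 in Supt6 and 5 of 29 in Supt5. Why they are unlisted was not tested. The 3 listed exceptions are introns 19 and 29 of Supt5, which overlap exons of the antisense gene Gm44709, and intron 4 of Nelfb, which overlaps the opposite-strand small nuclear RNA gene Gm22572. Whether reads were counted by strand is not given in the sources used here, so values of these introns are uncertain. Values are uncertain for the same reason where Polr2b overlaps Igfbp7, Polr2c overlaps Dok4, Supt6 overlaps Sdf2 and Nelfa overlaps Nsd2. In the first protein-coding models of Polr2b, Polr2c, Supt6 and Nelfa, however, no listed intron overlaps an annotated exon of another transcript.

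The first comparison asked how much spliced RNA each gene had, measured by split reads at the 5′ junctions of its introns. Nelfb and Supt5 were called lower, no listed gene was called higher, and the transcripts of the polymerase's own subunits did not pass the test in either direction. Of 9 genes tested, 2 were called lower and 0 higher (edgeR quasi-likelihood test, Benjamini-Hochberg adjustment over 9474 genes, adjusted p under 0.05), where 6.76% of all genes were called lower and 1.96% higher. At an unadjusted edgeR p under 0.05, Polr2g was lower in addition to Nelfb and Supt5, and 1 gene was higher (Polr2a). DESeq2 also called 2 lower and 0 higher. The median log2 fold change was −0.16 over the 9 genes and 0.01 over all genes. Without knockdown replicate 2 the median of the 9 was −0.04.

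Levels in controls, as CPM of split reads per listed intron, ran from 69.9 ± 4.58 in Polr2a (SD, n = 2, as for the levels that follow) through 39.0 ± 0.30 in Polr2c to a group of similar genes. These were Supt5 with 28.9 ± 0.071, Polr2b with 28.1 ± 0.47, Nelfa with 26.1 ± 0.39 and Supt6 with 23.0 ± 0.010. Polr2g had 18.0 ± 0.22 and Nelfb 12.4 ± 0.26. Supt5 and Polr2b were the closest neighbours, at 28.9 and 28.4 in control replicate 1 and 28.8 and 27.8 in replicate 2. Polr2e stood at 2.12 ± 0.36, but it rests on 2 introns, of which 1 belongs to a retained-intron model with 0 split reads at its 5′ junction. Its total RNA level is therefore not comparable with the others.

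**Figure D1:**
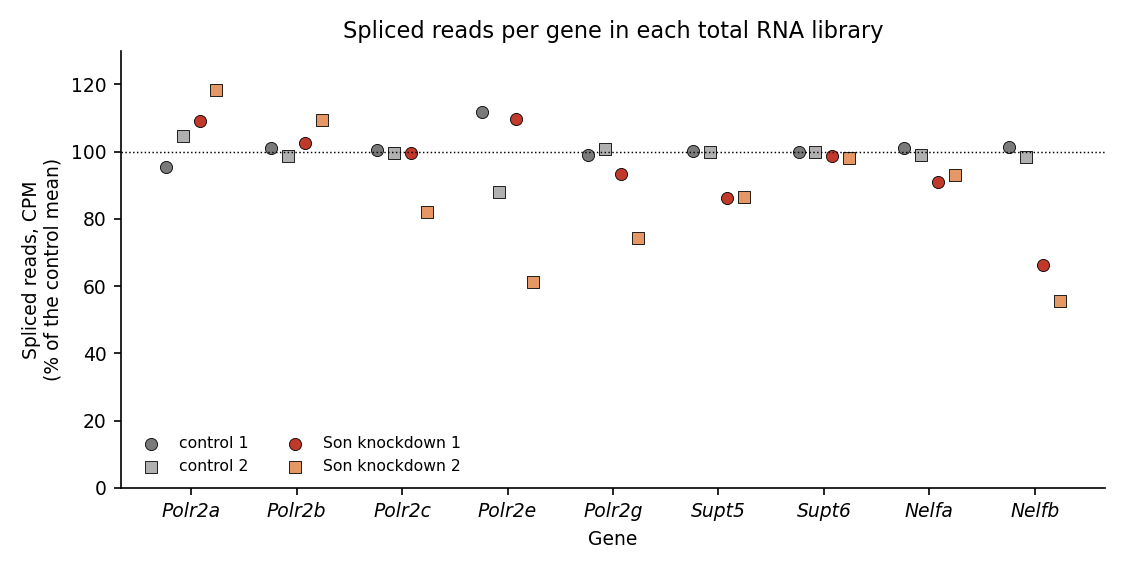
Split reads at 5′ junctions per gene, as CPM in percent of the gene's control mean, in each of the 4 total RNA libraries (grey, control; red and orange, Son knockdown; circles replicate 1, squares replicate 2). Nelfb lies far below its controls in both knockdown libraries and Supt5 a little below, while Polr2a and Polr2b lie above their controls.

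Polr2a, the largest subunit, which carries the catalytic centre and the repeated C-terminal domain, had 1600 and 1756 CPM in controls against 1829 and 1985 CPM after knockdown. Both knockdown libraries were above both controls, but the log2 fold change of 0.16 (standard error 0.067) did not pass (edgeR adjusted p = 0.164). Without knockdown replicate 1 it passed, at 0.23 (edgeR adjusted p = 2.73e-07), a setting in which 1287 of 9484 genes were called lower and 906 higher, against 640 and 186 with all libraries. Polr2b, the other large subunit of the active centre, had 540 and 527 CPM against 547 and 584, also without overlap, and its log2 fold change was 0.06 (edgeR adjusted p = 0.698). Polr2c, which nucleates assembly of the core, had 196 and 194 CPM against 194 and 160 CPM. Its lower mean came from knockdown replicate 2, and the log2 fold change was −0.16 (edgeR adjusted p = 0.352).

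Polr2g, whose product forms with that of Polr2d the stalk near the emerging RNA, had 107 and 109 CPM in controls and 101 and 80.3 in the knockdown. The groups did not overlap, with a log2 fold change of −0.27 (standard error 0.104, edgeR adjusted p = 0.127). Of 1671 and 1138 split reads in controls, 518 and 352 lay at intron 2 of another model, ENSMUST00000236566. In the knockdown these were 433 and 227 of 1473 and 832. That intron had 0 to 3 split reads per library at its 3′ junction. From 3′ junctions the log2 fold change of Polr2g was −0.23. In the same setting with more calls over all genes, without knockdown replicate 1, Polr2c (−0.30, adjusted p = 0.000535) and Polr2g (−0.44, adjusted p = 4.05e-05) passed in edgeR. Without knockdown replicate 2 they stood at −0.03 and −0.13 (edgeR adjusted p = 0.840 and 0.428). Polr2e, a subunit shared by the nuclear RNA polymerases, had 74 and 39 split reads at 5′ junctions in controls, against 68 and 27 after knockdown. These are too few for a precise value, and the log2 fold change was −0.23 with a standard error of 0.304.

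Supt5 had 723 and 720 CPM in controls and 621 and 624 in the knockdown. The control mean was 721 ± 1.77 CPM and the knockdown mean 623 ± 2.14 CPM (SD, n = 2). The fall in Supt5 was small but larger than this spread, which rests on 2 libraries per group and is imprecise. Its log2 fold change of −0.23 passed the test (standard error 0.066, edgeR adjusted p = 0.0280), or 85.1% of the control. From the best covered intron alone it was −0.15 (edgeR adjusted p = 0.696), and it was not called without control replicate 1 (adjusted p = 0.426) or control replicate 2 (0.421), although the value stayed between −0.24 and −0.22 when any library was left out. Supt6 had 783 and 782 CPM against 774 and 767, and its log2 fold change was −0.04 (edgeR adjusted p = 0.786).

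Nelfb, the NELF subunit that links the complex's modules, fell most among the 9 genes. It had 88.4 and 85.9 CPM in controls and 57.7 and 48.5 in the knockdown, from 1377, 895, 842 and 503 split reads. Both knockdown libraries were far below both controls. Its log2 fold change of −0.73 passed the test (standard error 0.108, edgeR adjusted p = 8.77e-05), which is 60.3% of the control, and Nelfb was called in every alternative that was run. Nelfa, the subunit that contacts the polymerase, had 211 and 206 CPM against 190 and 194. The groups did not overlap, but the log2 fold change of −0.14 did not pass (edgeR adjusted p = 0.347). Over the 9 genes, both knockdown libraries were below both controls in 5 (22.0% of all genes) and above them in 2 (27.5% of all genes).

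The next comparison asked whether these genes were spliced less completely. Supt5 and Nelfb again passed, both with more unsplit (unspliced) reads per split read in the knockdown, and the 7 other genes did not. With reads summed over a gene's introns and tested as odds of unsplit to split reads, 2 of 9 genes were called lower in splicing efficiency and 0 higher (edgeR quasi-likelihood test, Benjamini-Hochberg adjustment over 9370 genes). Of all genes, 6.98% were called lower and 0.128% higher. No gene of the 9 was higher at an unadjusted p under 0.05 either; DESeq2 called 2 lower and 0 higher as well, and limma called none in either direction. Supt5 and Nelfb are also the 2 genes called lower in spliced reads, and 4.8% of all genes tested in both measures were called lower in both. Both measures use the split reads and are therefore not independent.

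Supt5 had a splicing efficiency of 0.963 and 0.955 in controls and 0.938 and 0.929 in the knockdown, without overlap. Its log2 odds ratio of unsplit reads was 0.73 (standard error 0.213, edgeR adjusted p = 0.0113; above 0 means less spliced in the knockdown). Unsplit reads themselves stood at 55.7 and 67.9 CPM in controls and 81.5 and 94.9 in the knockdown. The call was lost without control replicate 1 (adjusted p = 0.606), control replicate 2 (0.0853) or knockdown replicate 2 (0.249), with values from 0.59 to 0.88, and with limma (adjusted p = 0.340).

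Nelfb had efficiencies of 0.962 and 0.947 against 0.924 and 0.886. Its log2 odds ratio was 1.13 (standard error 0.278, edgeR adjusted p = 0.00135). Its unsplit reads overlapped between groups, at 7.06 and 9.59 CPM in controls and 9.53 and 12.4 in the knockdown. Its split reads did not overlap. The call was lost without control replicate 1 (edgeR adjusted p = 0.382), without knockdown replicate 2 (0.148) and with limma (0.248), with values from 0.82 to 1.46 when 1 library was left out.

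Among the genes that were not called, the log2 odds ratio was 0.10 for Polr2a, −0.09 for Polr2b, 0.16 for Polr2c, 0.17 for Polr2g, 0.27 for Supt6 and 0.36 for Nelfa, with edgeR adjusted p-values from 0.707 to 0.976. Nelfa was 0.982 and 0.982 spliced in controls and 0.979 and 0.975 in the knockdown, so that 3 of 9 genes had both knockdown libraries below both controls (27.1% of all genes). Polr2e had the largest log2 odds ratio, 1.20 (standard error 0.524, edgeR adjusted p = 0.211). Its efficiencies were 0.922 and 0.822 in controls and 0.844 and 0.642 in the knockdown, so the groups overlapped. These rest on 214 and 134 split and 18 and 29 unsplit reads in controls, against 173 and 70 split and 32 and 39 unsplit reads in the knockdown. Its 2 introns include that of the retained-intron model, without split reads at its 5′ junction. The log2 odds ratio of Polr2e was −0.09 at the 3′ junction alone, 2.01 without knockdown replicate 1 and 0.42 without knockdown replicate 2. When library totals were taken apart for split and for unsplit reads (separate scaling), the median of all genes went from 0.09 to −0.08 and the signs turned for Polr2a (−0.06), Polr2c (−0.02) and Polr2g (−0.0019). Relative to the median of all genes, the median of the 9 was higher by 0.19 under either scaling, by 0.06 at the 3′ junction alone, and by 0.11 (without knockdown replicate 2) to 0.36 (without control replicate 1) when 1 library was left out. Without knockdown replicate 2, 5 of the 9 genes had a log2 odds ratio above 0, against 8 with all libraries, and their median was 0.09 against 0.27.

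**Figure D2:**
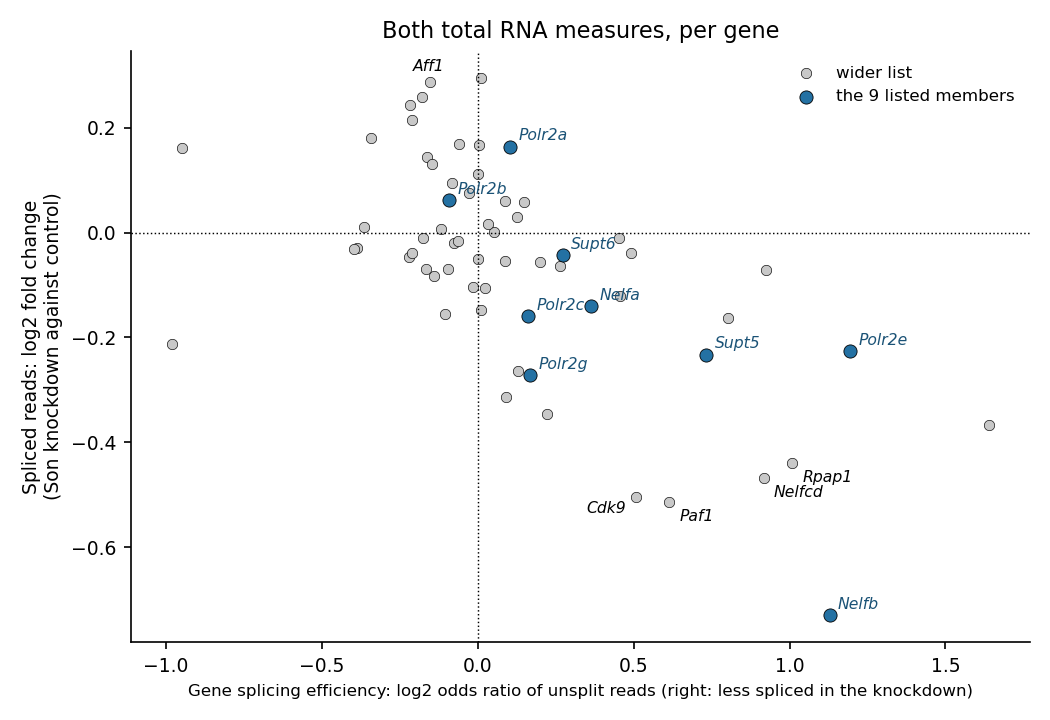
Log2 fold change of spliced reads (vertical) against the log2 odds ratio of unsplit reads (horizontal, to the right less spliced in the knockdown) for the 9 listed genes (blue, named) and genes of a wider elongation list (grey, named where called in either test). Nelfb is lowest, and Nelfcd and Rpap1 lie closest to it; Polr2a and Polr2b lie above 0 on the vertical axis.

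Single introns were then tested. Of 127 introns with enough reads, 2 were called lower in splicing efficiency and 0 higher (edgeR quasi-likelihood test, Benjamini-Hochberg adjustment over 63309 introns), where 1.71% of all tested introns were called lower and 0.0442% higher. A share of 2 in 127 is near that background. DESeq2 and limma called 0 of the 127. At an unadjusted p under 0.05, 22 of 127 were lower and 1 higher, against 8.11% lower and 1.61% higher of all tested introns. Both knockdown libraries were below both controls in 46 introns, or 36.2% (24.3% of all), and above them in 10, or 7.87% (13.1% of all). The log2 odds ratio was above 0 in 91 of 127 (58.0% of all), with a median of 0.33 against 0.12 over all introns. With separate scaling these were 76 of 127 (47.3% of all), 0.16 and −0.04. Without knockdown replicate 2 they were 75 of 127 (49.7% of all), 0.14 and −0.0046, and without knockdown replicate 1 they were 98 of 126 (63.5% of all), 0.50 and 0.26. Of the 127, 55 were at most 283 nt long, the limit of the shortest 20% of all tested introns. Of all introns up to that length, 71.5% had a log2 odds ratio above 0. Both knockdown libraries were below both controls in 40.4% of them, and 21.9% were lower at an unadjusted edgeR p under 0.05. Above 283 nt these shares were 54.5%, 20.2% and 4.65%. Whether length plays a part was not tested.

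**Figure D3:**
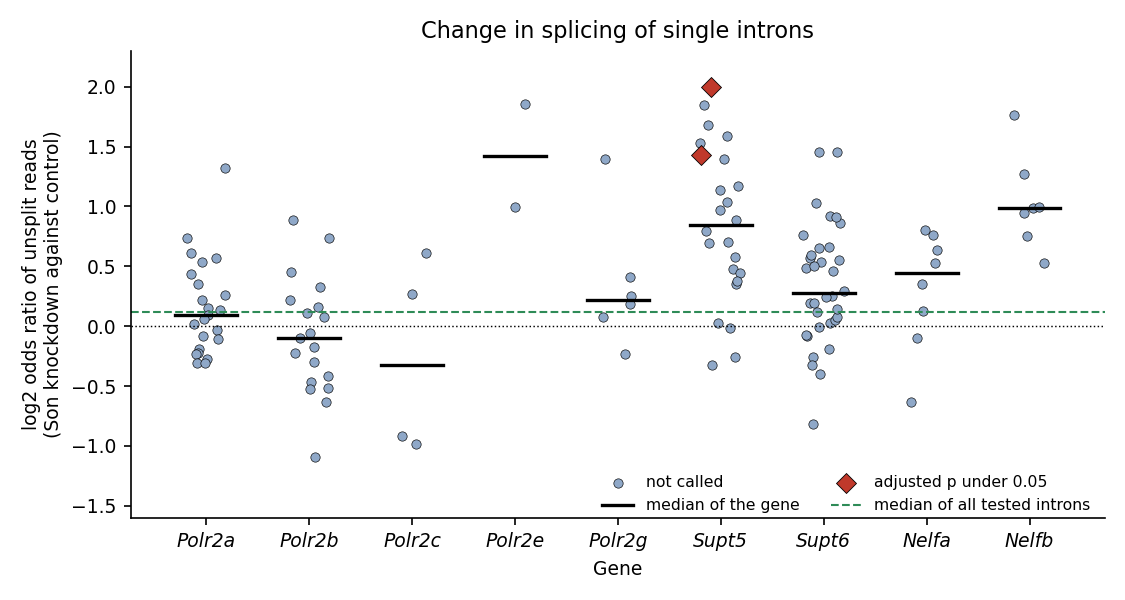
Log2 odds ratio of unsplit reads in the knockdown against control for each of the 127 tested introns, by gene; black bars are gene medians, the dashed line the median of all tested introns (0.12) and red diamonds the 2 called introns. The medians of Supt5 (0.84) and Nelfb (0.99) lie well above the dashed line, while those of Polr2a (0.09) and Polr2b (−0.10) do not.

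The shift was unevenly shared. Supt5 gave 12 of the 22 introns with an unadjusted edgeR p under 0.05 and lower efficiency, from 24 tested. Supt6 gave 4 of 34, Nelfb 3 of 7, Polr2a 1 of 23, Polr2e 1 of 2 and Polr2g 1 of 6. This share was 8.11% over all tested introns and 21.9% over those of at most 283 nt. Among Supt5 introns of at most 283 nt it was 7 of 14. In Supt5, 21 of 24 tested introns had a log2 odds ratio above 0 (58.0% of all tested introns). In 16 of the 24, both knockdown libraries were below both controls (24.3% of all). Of the 24, 14 were at most 283 nt long, and of all introns up to that length these shares were 71.5% and 40.4%. Introns 2 and 3 of another model, ENSMUST00000207563, are in both counts, and their split reads lay mostly at a single junction. Both called introns are in Supt5, and 5.44% of all genes with a tested intron had at least 1 called lower.

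Intron 14 of Supt5 (chr7:28021739-28021888 in GRCm39, minus strand, 150 nt, numbered in the model ENSMUST00000003527) lies between coding exons. Its splicing efficiency was 0.958 and 0.981 in controls and 0.907 and 0.844 in the knockdown. There were 17 and 4 unsplit reads in controls against 34 and 29 after knockdown, beside 386 and 207 split reads against 333 and 157. The log2 odds ratio was 1.99 (standard error 0.552, edgeR adjusted p = 0.0300). The call was lost without control replicate 1 (adjusted p = 0.168), control replicate 2 (0.410) or knockdown replicate 2 (0.250), with DESeq2 (0.227), with limma (0.373), with separate scaling (0.0557) and at either junction alone (0.221 and 0.453), with every value at or above 1.57.

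Intron 29 of Supt5 (chr7:28014696-28014773 in GRCm39, minus strand, 78 nt) is the last intron of the same model, also between coding exons. It overlaps an exon of the antisense gene Gm44709, and strand use is not given, so its values are uncertain. Its efficiency was 0.986 and 0.983 in controls and 0.965 and 0.952 in the knockdown, from 26 and 17 unsplit and 1772 and 991 split reads against 52 and 45 unsplit and 1444 and 889 split reads. The mean efficiency fell by 0.0258. The log2 odds ratio was 1.43 (standard error 0.400, edgeR adjusted p = 0.0332). It was not called without control replicate 1 (adjusted p = 0.530), control replicate 2 (0.170) or knockdown replicate 2 (0.244), with DESeq2 (0.249), limma (0.455) or either junction alone (0.386 and 0.196), with every value at or above 1.19.

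Just outside the threshold were introns 28 (edgeR adjusted p = 0.0515) and 4 (0.0589) of Supt5. Intron 28 went from 0.989 and 0.983 to 0.964 and 0.967, and intron 4 from 0.893 and 0.937 to 0.760 and 0.787. The largest difference in Supt5, named after its values were seen, was in intron 16 (1627 nt), at 0.562 and 0.592 in controls and 0.370 and 0.254 in the knockdown. It rests on 50 and 42 split and 39 and 29 unsplit reads in controls and 47 and 29 split and 80 and 85 unsplit reads in the knockdown, and it did not pass (edgeR adjusted p = 0.231). Introns 17, 19 and 27, also named after their values were seen, are 106, 90 and 82 nt long and had log2 odds ratios of −0.02, −0.32 and 0.03 (edgeR adjusted p = 0.997, 0.972 and 0.997).

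**Figure D4:**
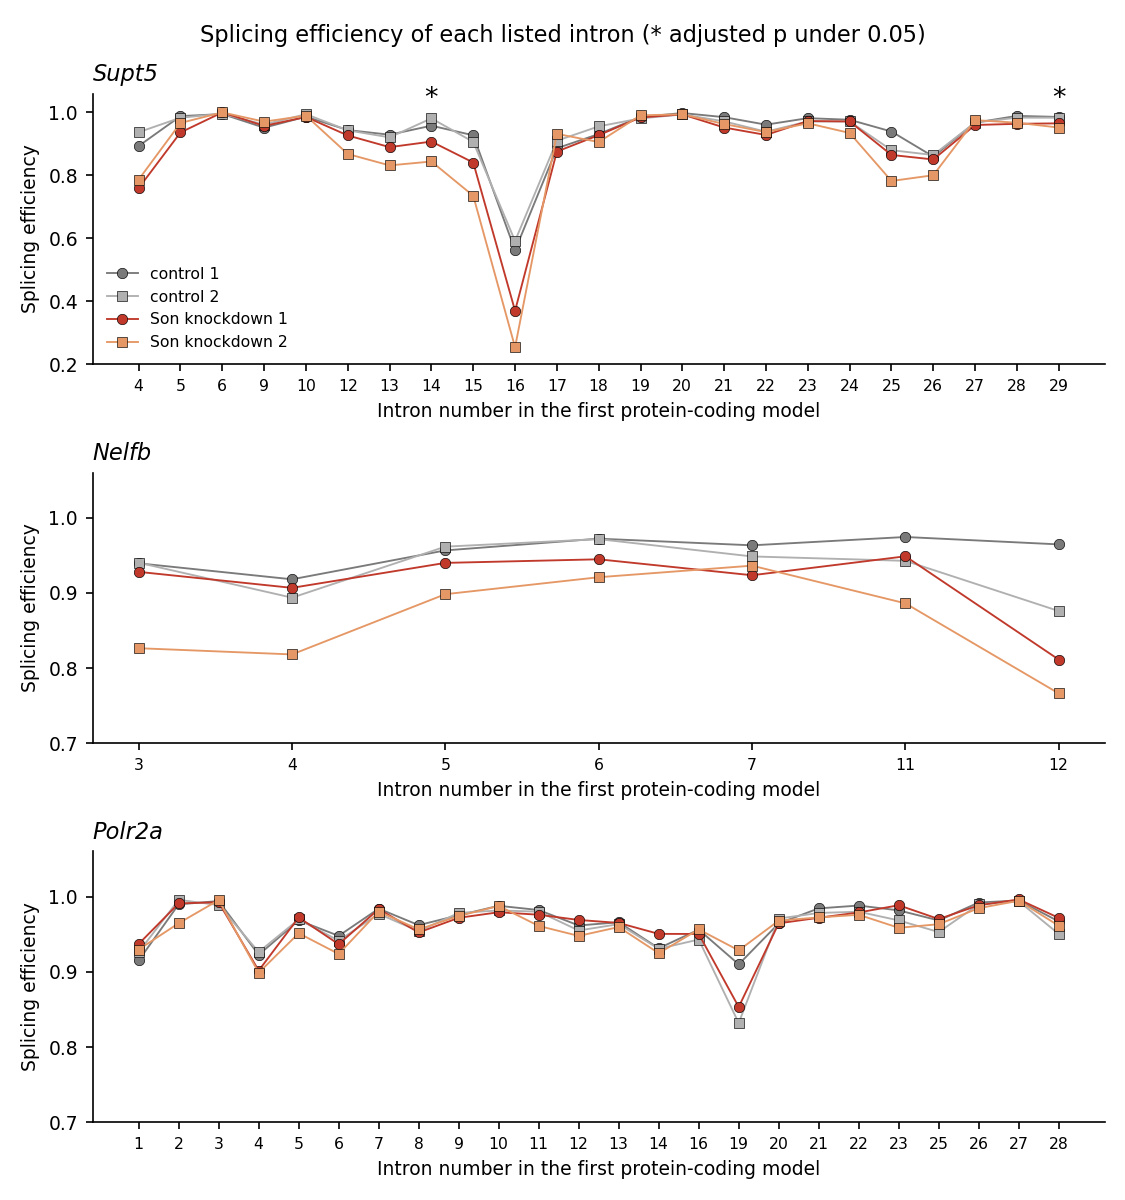
Splicing efficiency of each intron listed in all 4 libraries, in order along Supt5, Nelfb and Polr2a, with 1 line per library and a star over called introns (the vertical axes start at 0.2 for Supt5 and at 0.7 for the other genes). The knockdown lines run below the controls at introns 4, 12 to 16 and 25 of Supt5, among others, and at 5 of the 7 introns of Nelfb, and they cross the control lines along Polr2a.

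In Nelfb all 7 tested introns had log2 odds ratios above 0 (58.0% of all tested introns), from 0.53 to 1.76. In 5 of the 7, both knockdown libraries were below both controls (24.3% of all). The smallest value belonged to intron 4, which overlaps the small nuclear RNA gene. The smallest p was in intron 12, the last one (chr2:25090479-25090670 in GRCm39, minus strand, 192 nt). Its efficiency was 0.964 and 0.876 in controls and 0.811 and 0.766 in the knockdown, from 8 and 18 unsplit and 217 and 127 split reads against 30 and 25 unsplit and 129 and 82 split reads. Its log2 odds ratio of 1.76 did not pass (edgeR adjusted p = 0.121).

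The introns of Polr2a are as short as those of Supt5 and better covered. These genes were set side by side after their values were seen, and whether length or coverage plays a part was not tested. The median length of tested introns was 220 nt in Polr2a and 242 nt in Supt5, against 1128 nt for all, and the median depth was 2187 and 565 junction reads per library. Of the 23 tested introns of Polr2a, 14 had a log2 odds ratio above 0 (58.0% of all tested introns), with a median of 0.09. In 7 of the 23, both knockdown libraries were below both controls (24.3% of all), and in 1 above them (13.1% of all). Among its 13 introns of at most 283 nt, 5 were below in this way (40.4% of all introns up to that length). Its smallest p was in intron 11 (79 nt; 0.982 and 0.980 against 0.976 and 0.961; log2 odds ratio 0.73, edgeR adjusted p = 0.305). Among the shortest 20% of all tested introns, up to 283 nt, the median log2 odds ratio was 0.43 over 12695 introns, 0.09 over 13 of Polr2a and 0.64 over 14 of Supt5. Above that length it was 0.07 over 50614 introns, 0.01 over 10 of Polr2a and 1.05 over 10 of Supt5. Introns of 1 gene share its transcripts and are not replicates of one another.

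Supt6 had 26 of 34 tested introns above 0, with a median log2 odds ratio of 0.28. These include intron 6 of another model, ENSMUST00000108314, whose split reads lay mostly at its 3′ junction. Its smallest p was in intron 1 (11864 nt), at 0.988 and 0.983 against 0.977 and 0.940 (log2 odds ratio 1.45, edgeR adjusted p = 0.260). Nelfa had 6 of 8 above 0 and a median of 0.44, with the smallest p in intron 9 (170 nt; 0.968 and 0.967 against 0.939 and 0.951; edgeR adjusted p = 0.709). Polr2g had 5 of 6 above 0 and a median of 0.22, with the smallest p in intron 7 (0.986 and 0.992 against 0.975 and 0.964; edgeR adjusted p = 0.423). Its 6 introns include that of ENSMUST00000236566, whose split reads lay mostly at its 5′ junction.

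In Polr2b, 8 of 19 tested introns were above 0, and the smallest p went the other way. Intron 23 (2811 nt) had efficiencies of 0.947 and 0.862 in controls and 0.982 and 0.919 in the knockdown, and its log2 odds ratio was −1.09 (edgeR adjusted p = 0.456). The groups overlapped. The value moved with the library left out, from −2.37 without knockdown replicate 2 (edgeR adjusted p = 0.0300) to −0.14 without knockdown replicate 1 (0.962). In Polr2c, 2 of 4 were above 0, and its intron 2 was at 0.992 and 0.990 against 0.997 and 0.993 (edgeR adjusted p = 0.640). The intron of Polr2e with its smallest p is intron 3 of the retained-intron model ENSMUST00000147507 (208 nt), at 0.805 and 0.709 against 0.561 and 0.356 (log2 odds ratio 1.85, edgeR adjusted p = 0.234). All of its 16 to 66 split reads per library lay at the 3′ junction, so none of them joins this intron's own 5′ end.

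The long reads were used to see which transcripts of the 10 genes were polyadenylated. With 1 library per group there is no test and no replicate check, and the intervals that follow cover counting error only. Control and knockdown are named here by the sample titles, and the origin of the control library is unclear, as stated above. Long-read levels per gene, as the ratio of CPM in the knockdown to the control with 95% exact intervals, lay below 1 for the elongation factors. The ratio was 0.763 (0.637 to 0.912) for Supt5, 0.782 (0.623 to 0.977) for Supt6, 0.761 (0.571 to 1.01) for Nelfa and 0.834 (0.535 to 1.28) for Nelfb. Nelfb rests on 67 control and 34 knockdown reads, and its interval includes both no difference and the 60.3% measured in total RNA.

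For the polymerase subunits the ratio was 1.01 (0.862 to 1.17) for Polr2a, 1.10 (0.877 to 1.37) for Polr2b, 1.01 (0.916 to 1.11) for Polr2c and 0.900 (0.777 to 1.04) for Polr2g. Polr2e was at 268 CPM in the control and 211 CPM in the knockdown library, a ratio of 0.787 (0.696 to 0.888) from 825 and 395 reads. Polr2i, a small subunit at the polymerase's jaw, had 266 reads in the control and 147 in the knockdown, or 86.4 and 78.4 CPM, a ratio of 0.908 (0.737 to 1.12). Of the 10 genes none was 2-fold apart, and the median log2 ratio was −0.20 against −0.01 over 9611 genes.

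**Figure D5:**
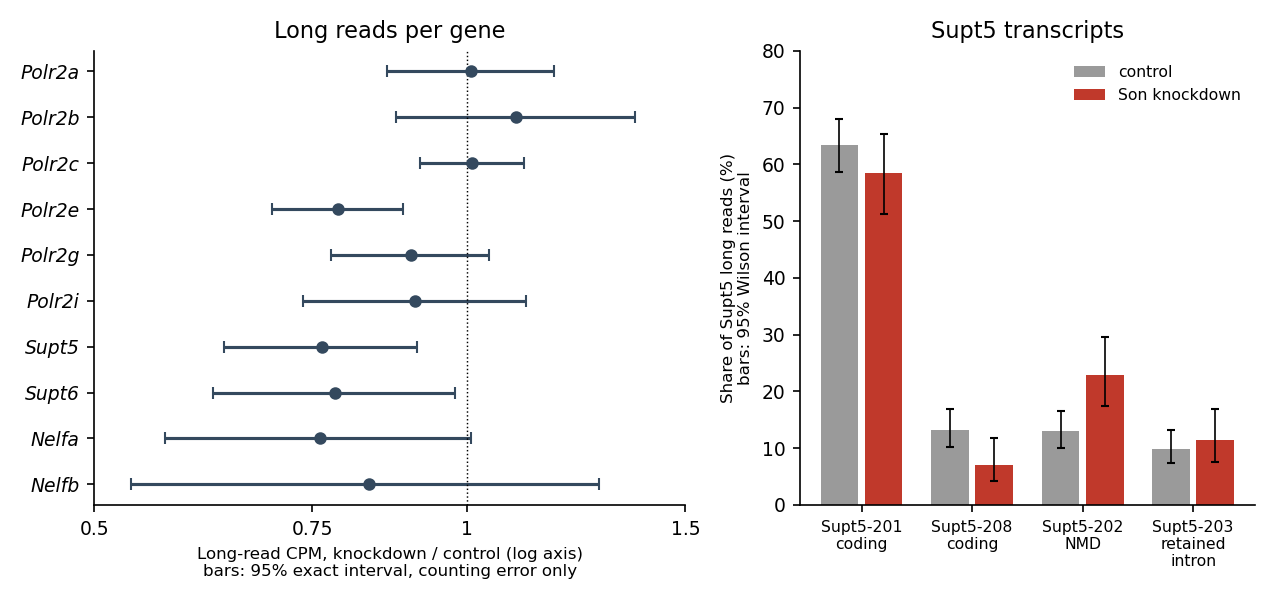
Left, ratio of long-read CPM in the Son knockdown to the control library for the 10 genes on a log axis, with 95% exact intervals for counting error. Right, share of Supt5 long reads on each model with at least 20 reads, with 95% Wilson intervals; the nonsense-mediated decay (NMD) model holds 12.9% in the control and 23.0% in the knockdown library.

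Of 21 transcripts with at least 20 reads over both libraries, 1 was at least 2-fold lower and 0 at least 2-fold higher, where 5.8% and 3.32% of 13807 transcripts were. The exception was the coding transcript Supt5-208, with 52 and 13 reads (ratio 0.411, 0.205 to 0.765). The main coding transcript Supt5-201 had 250 and 107 reads (0.703, 0.555 to 0.885), and the retained-intron transcript Supt5-203 had 39 and 21 (0.885, 0.494 to 1.54). Supt5-202, a model annotated as a target of nonsense-mediated decay, which degrades transcripts with an early stop codon, had 51 and 42 reads (1.35, 0.877 to 2.08). It held 12.9% of Supt5 reads in the control (95% Wilson interval 9.98 to 16.6) and 23.0% after knockdown (17.5 to 29.6), so that the intervals do not overlap. The coding models together held 76.6% (72.2 to 80.6) and 65.6% (58.4 to 72.1).

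What sets Supt5-202 apart is an exon of 97 bases that the main model lacks and in which its reading frame ends. The exon is shown because it carries that stop. Its first 84 bases, from GENCODE M21, run up to the stop codon, given in capitals.
Supt5-202 exon 3: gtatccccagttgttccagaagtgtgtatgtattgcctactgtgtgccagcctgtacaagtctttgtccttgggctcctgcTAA
In total RNA, few split reads ended at this exon. At its upstream side there were 6 and 1 in controls and 2 and 4 in the knockdown, and at its downstream side 3 and 0 against 0 and 1. These counts are too low for a comparison. The introns on either side had 19 to 67 split reads at their outer ends, which can join other exons too. Whether long reads given to Supt5-202 contain the exon was not tested, since the tables hold counts per model only.

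Among the other genes, Polr2a-201 had 386 and 246 reads and Polr2a-202 had 53 and 23, ratios of 1.05 (0.889 to 1.23) and 0.713 (0.417 to 1.18). The coding models Polr2c-201 and Polr2c-202 held 53.5% and 46.2% of Polr2c reads in the control and 52.4% and 47.6% in the knockdown library. Polr2e-201 had 762 and 355 reads (0.765, 0.673 to 0.869), while its retained-intron transcript Polr2e-203 had 30 and 23 (1.26, 0.699 to 2.24). Retained-intron models together held 7.64% (6.01 to 9.65) of Polr2e reads in the control and 10.1% (7.53 to 13.5) in the knockdown library. For Polr2i they held 8 of 266 reads, or 3.01% (1.53 to 5.82), and 12 of 147, or 8.16% (4.73 to 13.7). These intervals overlap for both genes.

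The remaining transcripts with at least 20 reads had intervals that include 1, except for Supt6-201. It had 235 and 110 reads (0.769, 0.608 to 0.969), and the retained-intron Supt6-202 had 15 and 9. Nelfa-201 had 153 and 71 reads (0.762, 0.567 to 1.02) and Nelfb-201 had 49 and 29 (0.972, 0.592 to 1.57). Retained-intron models held 16 of 67 Nelfb reads in the control and 5 of 34 in the knockdown, shares of 23.9% (15.3 to 35.3) and 14.7% (6.45 to 30.1). Polr2b-201 had 201 and 136 reads (1.11, 0.888 to 1.39), Polr2g-201 had 414 and 240 (0.952, 0.809 to 1.12) and Polr2i-201 had 241 and 120 (0.818, 0.652 to 1.02). The minor models Polr2g-202, Polr2g-203, Polr2e-202 and Polr2i-202 had 13 to 78 control reads, with ratios of 0.667, 0.716, 0.876 and 1.64.

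A wider list of 57 polymerase and elongation genes placed these changes among their partners. Of the list, 55 were listed in total RNA and 54 tested for spliced reads, of which 5 were called lower and 1 higher (edgeR adjusted p under 0.05; 6.76% and 1.96% of all genes), with a median log2 fold change of −0.03. Of 55 tested for splicing efficiency, 2 were called lower and 0 higher, with limma 0 and 0 and DESeq2 2 and 0 (6.98% and 0.128% of all genes). These shares are near the background. None of the 7 other polymerase subunits was called in either test, with log2 fold changes from −0.31 (Polr2j) to 0.01 (Polr2d).

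Nelfcd, which codes for the NELF-C/D subunit, was called in both measures. It had 86.1 and 87.5 CPM in controls and 66.5 and 60.6 in the knockdown (log2 fold change −0.47, edgeR adjusted p = 0.00376), and its splicing efficiency was 0.918 and 0.912 against 0.856 and 0.845 (log2 odds ratio 0.92, adjusted p = 0.00691). Its spliced reads were not called without control replicate 1 (adjusted p = 0.0718) or 2 (0.0912), nor its efficiency without control replicate 1 (0.332), control replicate 2 (0.116) or knockdown replicate 2 (0.0582), or with limma (0.213). Nelfe, the remaining NELF subunit, stood at −0.06 (edgeR adjusted p = 0.840). Supt4a, the DSIF partner of Supt5, stood at −0.05 (edgeR adjusted p = 0.820). Among the subunit genes of NELF and DSIF, Nelfb, Nelfcd and Supt5 thus passed in both measures, and Nelfa, Nelfe and Supt4a in neither. Of all genes tested in both measures, 4.8% were called lower in both, and the measures share the split reads. This grouping draws on the members and the wider list and was not tested as a set.

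Cdk9, the kinase of P-TEFb, had 38.8 and 42.2 CPM in controls and 32.0 and 25.6 in the knockdown (log2 fold change −0.50, edgeR adjusted p = 0.0204). Paf1, a subunit of the elongation complex named after it, had 35.1 and 36.4 CPM against 25.4 and 25.3 (−0.51, edgeR adjusted p = 0.0150). Aff1, a scaffold of the super elongation complex, rose from 202 and 192 CPM to 251 and 237 (0.29, edgeR adjusted p = 0.0218). These 3 genes were named because they were called, and in them the groups did not overlap. Over all genes, both knockdown libraries were below both controls in 22.0% and above them in 27.5%. Each of the 3 calls was lost without either control replicate, and that of Cdk9 also without knockdown replicate 2. With 1 library left out, log2 fold changes ran from −0.67 to −0.36 for Cdk9, −0.54 to −0.49 for Paf1 and 0.25 to 0.32 for Aff1.

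Rpap1, a factor for assembly and nuclear import of the polymerase, had 239 and 233 CPM in controls and 191 and 162 in the knockdown (log2 fold change −0.44, edgeR adjusted p = 0.00155). It had 4 introns called lower, the only gene of the wider list with any. Its splicing efficiency was 0.889 and 0.855 against 0.808 and 0.736 (log2 odds ratio 1.01, edgeR adjusted p = 0.000271). The latter call was lost without control replicate 1 (0.305) or knockdown replicate 2 (0.124) and with limma (0.283), while the former held when any library was left out. From the best covered intron alone, none of the wider list was called for spliced reads, with edgeR adjusted p-values from 0.0699 to 0.744 for the 5 genes named here.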

How the data were processed

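Per the labels, total RNA was processed with SPLICE-q, which gives, for every intron, how many reads cross each junction spliced (split) or unspliced (unsplit). The authors deposited these counts with a score per intron. This deposited fraction was checked to equal split over all junction reads, with at least 10 reads at every listed junction. For long reads, the authors deposited counts per transcript, per the labels. GRCm39, minimap2 and SAMtools are named in the submitters' processing notes, with no role; the SPLICE-q settings, annotation and strand use are not given in the sources used here.

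Introns repeated over transcripts were counted once. Introns listed in all 4 libraries were used, and the 681 listed under several genes were left out of gene sums. One spliced read can add to the 5′ and to the 3′ junction, so junction sums overstate the number of separate reads. Names, transcript types and exon sequences came from GENCODE M21 by identifier, which named 12033 of 12134 genes and 98.6% of 116873 long-read transcripts; its coordinates (another build) were used only for the overlap of introns with exons within that annotation.

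Tests used edgeR 4.0.16 quasi-likelihood fits in R 4.3.3 over all introns or genes. Splicing models held the libraries and the read kind (split or unsplit) fixed and tested the extra odds of unsplit reads under knockdown, with at least 10 split and 10 unsplit reads. Spliced reads used TMM and the default expression filter, and CPM were taken over the split 5′ reads of introns used. A call is a Benjamini-Hochberg adjusted p under 0.05. DESeq2 1.42.0 and limma 3.58.1 were alternatives. CPM of long reads refer to all reads of a library; for the 2-fold rule 0.5 reads were added and 20 reads required. Intervals came from scipy 1.17.1. The edgeR fits of introns, gene efficiency and spliced reads with all libraries were also run on simulated counts. Replicate numbers were not taken as pairs, because there are 2 and the labels do not say what they share.

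The genes, lists and tests were chosen with earlier results of these data known. By rule, all 10 genes are named, with every called intron or else the intron with the smallest p, every transcript with at least 20 reads, and each called gene of the wider list except 1, which is counted but not reported here.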

Additional observations from a re-analysis of the deposited data

How the results depend on the processing

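Values called in the report lose their calls in part of the alternatives, as given there. Introns of the 9 genes called lower (2) numbered 0 at the 5′ or the 3′ junction alone, with DESeq2 and with limma, 1 with separate scaling, 6 with a minimum of 50 reads and 0 to 6 without 1 library. Genes called lower in efficiency (2) numbered 0 with limma and 0 to 3 without 1 library. Those called lower in spliced reads (2) numbered 1 from the best covered intron and 1 to 4 without 1 library.

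Of all introns, 1084 were called lower; the 5′ junction gave 231, the 3′ junction 319, DESeq2 283, limma 0 and leaving out 1 library 163 to 1394. Of all genes, 654 were called lower in efficiency, 0 with limma and 176 to 695 without 1 library; separate scaling gave 601 lower and 118 higher (16.4% higher) in place of 12 higher (1.80%). In spliced reads 640 were lower (22.5% of calls higher), 253 from the best covered intron and 344 to 1287 without 1 library (9.71% to 41.3% of calls higher). In the wider list, calls for spliced reads (5) numbered 0 from the best covered intron and 1 to 10 without 1 library, and calls for efficiency (2) numbered 0 with limma and 0 to 3 without 1 library.

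The replicate block, whose numbers share nothing stated in the labels (correlation of replicate differences 0.0017 over genes), gave 6 introns lower in the 9 genes, 1580 of all introns, 965 of all genes in efficiency and 6 of the wider list in efficiency. It kept the calls of Supt5 and Nelfb (adjusted p = 0.0396 and 6.04e-09 for spliced reads, edgeR).

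With a pseudocount of 5 reads, 0 of the 10 genes' transcripts and 231 of all (801) were at least 2-fold lower, and with at least 50 reads 258 of all were.

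Values that were not called changed sign in places. Separate scaling gave −0.0596 for Polr2a, −0.0211 for Polr2c and −0.0019 for Polr2g in efficiency, the 3′ junction −0.0947 for Polr2e, and the best covered intron 0.10 for Supt6 in spliced reads. Without 1 library, efficiency values ran from −0.0270 to 0.23 for Polr2a, −0.38 to 0.20 for Polr2b, −0.0433 to 0.38 for Polr2c and −0.16 to 0.51 for Polr2g, and spliced reads of Polr2e from −0.74 to 0.0870. The causes were not tested.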
